A study of Mus musculus with 28 samples.

Results

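The myotubularin family of phosphatases was followed as 10 genes, Mtm1, Mtmr1, Mtmr2, Mtmr3, Mtmr4, Mtmr6, Mtmr9, Mtmr10, Mtmr12 and Mtmr14, taken by name from the gene tables of 28 mouse libraries. All 10 were counted and all 10 passed the filter on low counts in both cohorts, out of 15439 genes that passed among 55416 counted in the Dnm2 cohort, and 14841 of 55359 in the Bin1 cohort. The libraries are bulk poly(A) RNA-seq of the tibialis anterior, a fast muscle of the lower leg, from C57BL/6N mice aged 8 weeks, 1 library per mouse and 4 mice per group. The Dnm2 cohort has wild-type (WT) mice and Dnm2 S619L/+ mice, which carry the S619L change of dynamin 2 on 1 allele in every tissue, each on placebo or on a diet with tamoxifen. The Bin1 cohort has WT mice on placebo and Bin1 mck-/- mice, which lack Bin1 only where the muscle creatine kinase promoter drives Cre, on placebo or tamoxifen, and no WT group on tamoxifen. Both genotypes model centronuclear myopathy, a muscle disease with nuclei placed in the middle of the fiber. The 2 cohorts were made into libraries with different protocols, with 300 ng of input RNA fragmented for 2 min in the Dnm2 cohort and 350 ng for 8 min in the Bin1 cohort, so no test was made between them.

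Myotubularins remove a phosphate from the inositol ring of phosphoinositides, lipids that mark endosomes and other membranes inside the cell. Their main substrate is PI3P, the lipid that recruits endosomal and autophagy proteins, and their active site is built around a cysteine and an arginine. Mtm1 is the founding member and is mutated in X-linked myotubular myopathy, the most severe centronuclear myopathy; in muscle its product acts on the same membrane system as amphiphysin 2, the product of Bin1, and dynamin 2. Mtmr1 and Mtmr2 are its closest relatives, and loss of MTMR2 in people gives a demyelinating Charcot-Marie-Tooth neuropathy. Mtmr3 and Mtmr4 form another branch with a FYVE domain, and Mtmr6 belongs to a further one. Mtmr14, also called Jumpy, is a more distant phosphatase that is active in skeletal muscle. Mtmr9, Mtmr10 and Mtmr12 have lost the catalytic residues; Mtmr9 binds Mtmr6, and Mtmr12 binds and stabilizes Mtm1.

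The stretch of coding sequence around the active site divides the members, and 7 of the 10 are shown because the results below fall on both sides of that division. Each run is 39 bases of the sense strand of the principal transcript (GENCODE M21, build GRCm38), and the capitals mark the codons at the place of the catalytic cysteine and arginine. In Mtm1, Mtmr2, Mtmr6 and Mtmr14 they read TGC or TGT, codons for cysteine, and AGG, CGC or CGG, codons for arginine. In Mtmr9, Mtmr10 and Mtmr12 the codons aligned with those of Mtm1 are others. The runs lie in coding exons at chrX:71299628-71299666 (Mtm1, exon 11 of 15), chr9:13799936-13799974 (Mtmr2, exon 11 of 15), chr14:60293411-60293449 (Mtmr6, exon 9 of 14), chr6:113265984-113266022 (Mtmr14, exon 11 of 19) and, on the minus strand, chr14:63529812-63529850 (Mtmr9, exon 7 of 10). Those of Mtmr10 and Mtmr12 cross from exon 12 to exon 13 of 16, between the ends chr7:64321224-64326680 and chr15:12261902-12263753.
Mtm1: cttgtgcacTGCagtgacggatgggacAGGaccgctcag
Mtmr2: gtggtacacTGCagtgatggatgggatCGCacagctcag
Mtmr6: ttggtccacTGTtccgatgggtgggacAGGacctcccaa
Mtmr14: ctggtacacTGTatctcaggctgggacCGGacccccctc
Mtmr9: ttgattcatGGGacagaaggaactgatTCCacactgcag
Mtmr10: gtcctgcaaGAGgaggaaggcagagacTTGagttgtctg
Mtmr12: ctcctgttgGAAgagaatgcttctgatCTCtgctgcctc

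Total reads on genes ran from 15586333 to 109710886 in the Dnm2 cohort and from 24671835 to 35136327 in the Bin1 cohort, so that a single mouse had from 117 reads of Mtmr12 to 8394 of Mtmr3. Levels are given as CPM, the reads of a gene per 1000000 reads on genes, with library sizes scaled by TMM, a scaling that assumes most genes do not differ. That choice matters here: the 4 WT placebo mice of the Dnm2 cohort had TMM factors of 0.812 to 0.900, below the 0.963 to 1.16 of the other 12 mice, and the 10 most abundant genes took 30.2 to 35.3% of their reads against 23.7 to 28.2% elsewhere in the cohort. With plain library sizes the median log2 fold change of all genes tested against this group moved from 0.02 to 0.29 for S619L/+ placebo, from -0.04 to 0.24 for WT tamoxifen and from 0.01 to 0.35 for S619L/+ tamoxifen, and the share of called genes that were lower moved from 44.8 to 8.87%, from 42.9 to 8.00% and from 45.4 to 6.77%. Calls of members against that group are therefore given on both scales, and other values are on the TMM scale unless stated. In the other comparisons the median moved by less, to 0.05 for tamoxifen in S619L/+ mice, to -0.21 for the interaction of genotype and tamoxifen, to 0.14 for Bin1 mck-/- placebo and to -0.16 for tamoxifen in Bin1 mck-/- mice, and the share of called genes that were lower moved from 36.9 to 25.6% in the first of these and from 51.5 to 79.0% in the last; no member was called in any of them on either scale. Bin1 was at 521 to 556 CPM in WT mice of the Bin1 cohort and at 36.1 to 62.1 CPM in the 8 Bin1 mck-/- mice, as labelled, whereas the Dnm2 S619L base change cannot be seen in gene counts. Markers of muscle fibers summed to 80310 CPM or more in every library. Summed bone markers were at 0.110 to 2.78 CPM in every placebo mouse and in 3 of the 4 Bin1 mck-/- tamoxifen mice, but at 494 CPM in Bin1 mck-/- tamoxifen mouse 2, at 779 to 1853 CPM in WT tamoxifen mice and at 562 to 1395 CPM in 3 S619L/+ tamoxifen mice, with 18.3 CPM in mouse 4 of that group. Tendon markers went the same way, at 1.92 to 139 CPM in WT placebo and 394 to 889 CPM in WT tamoxifen mice. In bulk tissue, fewer cells of a type and less RNA per cell cannot be told apart.

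Per kilobase of the principal transcript, Mtmr6 and Mtmr3 were the most abundant members in WT placebo muscle of both cohorts and Mtmr12 the least. In the Dnm2 cohort the levels were 22.05 ± 1.09 CPM per kb for Mtmr6, 15.6 ± 1.11 for Mtmr3, 9.99 ± 0.888 for Mtmr1, 8.77 ± 0.707 for Mtmr14, 6.76 ± 0.654 for Mtmr2, 5.99 ± 0.483 for Mtmr10, 4.78 ± 0.718 for Mtm1, 4.13 ± 0.566 for Mtmr9, 2.93 ± 0.103 for Mtmr4 and 1.26 ± 0.122 for Mtmr12 (SD, n = 4). By this length Mtm1, the member mutated in the human disease, was seventh of 10. Reads were counted per gene, and its place depends on the length used. The principal transcript of Mtm1 has 3316 bases, while its annotated exons together cover 13935. For Mtmr12, the last in this order, these lengths are 6840 and 7041. Levels by the longer lengths were not computed. The ranges of neighbours in this order overlapped for Mtmr1 and Mtmr14, for Mtmr2 and Mtmr10, and for Mtm1 and Mtmr9; the other neighbours did not overlap. In the Bin1 cohort Mtmr3 came first with 19.6 ± 1.48 CPM per kb, Mtmr6 next with 16.5 ± 0.699, and Mtmr12 last with 0.949 ± 0.151 (SD, n = 4). The ranges of Mtmr14 and Mtmr1 overlapped, and the 5 members from Mtmr2 at 4.73 ± 0.434 through Mtmr10, Mtmr9 and Mtm1 to Mtmr4 at 3.25 ± 0.354 each overlapped the next.

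**Figure D1:**
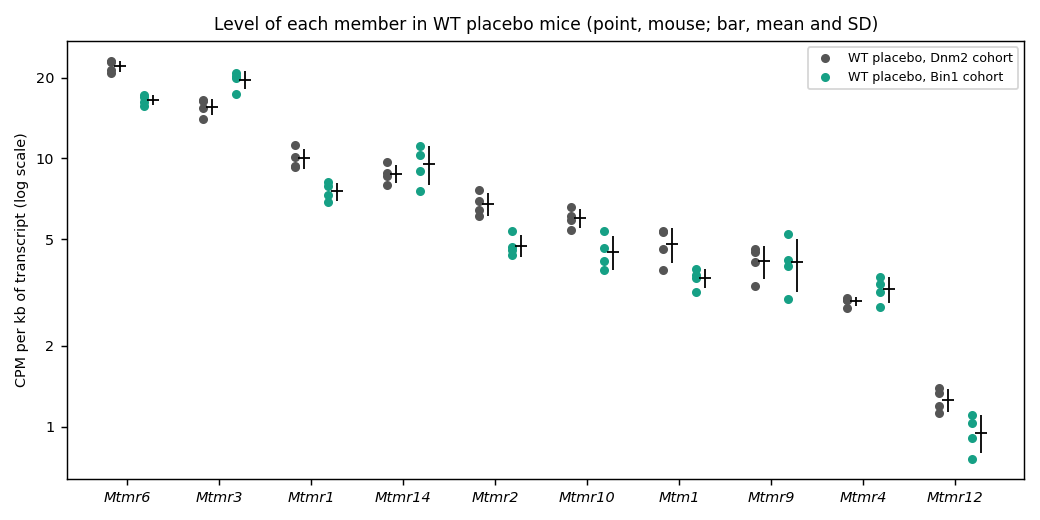
Level of each member in the 4 WT placebo mice of each cohort, in CPM per kb of the principal transcript on a log axis; points are mice, bars the mean and SD. The means of Mtmr6 and Mtmr3 lie between 15.6 and 22.05 CPM per kb in both cohorts, and those of Mtmr12 are 1.26 and 0.949.

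The first comparison asks what the Dnm2 S619L mutation does to these mRNAs in placebo muscle. On the TMM scale 4 of the 10 members fell, the phosphatases Mtmr2, Mtmr3 and Mtmr6 and the catalytically dead Mtmr10, and no member rose. Of all genes tested, 21.9% were called in either direction and 9.81% were called lower (edgeR's quasi-likelihood test, Benjamini-Hochberg adjusted p under 0.05 over all genes). The median log2 fold change was -0.21 over the members and 0.02 over all genes tested.

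Mtmr10 had the largest change. Its levels were 30.6, 34.2, 31.8 and 28.2 CPM in WT placebo mice 1 to 4 and 22.1, 20.3, 26.5 and 17.9 CPM in S619L/+ placebo mice. Every mutant was below every WT mouse, and the log2 fold change was -0.52 ± 0.12 (SE), a ratio of 0.697, with an edgeR adjusted p of 0.00823.

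Mtmr3, which carries a FYVE domain besides the phosphatase domain, stood at 85.1, 91.5, 90.2 and 77.9 CPM in WT placebo mice and at 69.4, 53.7, 60.0 and 63.1 CPM in S619L/+ placebo mice. The groups did not overlap. The log2 fold change was -0.48 ± 0.11 (SE), a ratio of 0.715 (edgeR adjusted p = 0.00488).

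For Mtmr2, the close relative of Mtm1, WT placebo mice had 24.4, 28.7, 26.3 and 23.1 CPM and S619L/+ placebo mice had 18.1, 18.1, 19.9 and 19.3 CPM. The mutants were tightly grouped below the lowest WT mouse. The log2 fold change was -0.44 ± 0.10 (SE), a ratio of 0.736 (edgeR adjusted p = 0.00536).

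Mtmr6, the most abundant member per kb in this cohort, was at 79.4, 87.2, 87.9 and 81.8 CPM in WT placebo mice and 73.5, 65.5, 67.9 and 73.1 CPM in S619L/+ placebo mice. The groups did not overlap, and the change was the smallest of the 4, at -0.26 ± 0.08 on the log2 scale (SE, edgeR adjusted p = 0.0272). That call was lost when WT placebo mouse 2 or 3, WT tamoxifen mouse 4, or S619L/+ placebo mouse 2 or 3 was left out, with adjusted p up to 0.117; the calls of Mtmr2, Mtmr3 and Mtmr10 held without each of the 16 mice, with adjusted p of at most 0.0387.

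The remaining 6 members did not pass the test. Mtm1 itself was at 12.7, 15.2, 17.7 and 17.7 CPM in WT placebo mice and 17.5, 14.01, 16.8 and 18.4 CPM in S619L/+ placebo mice. Those ranges overlap, and the log2 fold change was 0.08 ± 0.18 (SE, edgeR adjusted p = 0.789). With plain library sizes the log2 fold change of Mtm1 was 0.357 (edgeR adjusted p = 0.131), against a median of all genes of 0.285. Its binding partner Mtmr12 had a log2 fold change of -0.02 ± 0.15, Mtmr1 -0.12 ± 0.12, Mtmr4 -0.01 ± 0.10, Mtmr9 -0.15 ± 0.14 and Mtmr14 -0.27 ± 0.13 (SE), with edgeR adjusted p from 0.161 for Mtmr14 to 0.963 for Mtmr4. Without S619L/+ placebo mouse 2, the one mutant with a high Mtmr14 level (24.9 CPM against 16.7 to 18.3), Mtmr14 was called lower as well (adjusted p = 0.0376).

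With plain library sizes none of the 4 calls held. The log2 fold changes became -0.25 for Mtmr10, -0.20 for Mtmr3, -0.17 for Mtmr2 and 0.01 for Mtmr6, so that the direction of Mtmr6 flipped, while the median of all genes moved up to 0.29. Relative to that median the values were -0.54, -0.49, -0.45 and -0.27; since plain sizes shift all genes by about the same amount, these are close to the TMM values by construction. Whether the 4 mRNAs are called lower thus depends on the scaling. Bone markers do not separate these groups, at 1.34 to 2.72 CPM in WT placebo and 1.82 to 2.78 CPM in S619L/+ placebo mice. On the TMM scale muscle fiber markers moved in the same direction as the members, with 2 of 8 called lower, the myosin heavy chain genes Myh4 (-0.76) and Myh2 (-1.80), and a median log2 fold change of -0.23. With plain library sizes 1 of the 8 was called lower and 1 higher. The satellite cell gene Pax7 fell as well (-2.65, edgeR adjusted p = 0.000317), 1 of 3 satellite cell markers, as did 1 of 3 erythroid markers. The satellite cell markers had a median log2 fold change of -0.07 and a highest value of 0.54, and 1 was called higher with plain library sizes. Summed, they were at 19.0 to 29.2 CPM in WT placebo and at 25.9 to 33.1 CPM in S619L/+ placebo mice. Of 5 immune markers tested 2 rose (median log2 fold change 1.27), of 4 fibroblast markers 1 rose (median 0.75), of 3 tendon markers 2 rose (median 1.83), and of 4 endothelial markers 2 fell (median -1.0), and their part in the result was not tested.

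**Figure D2:**
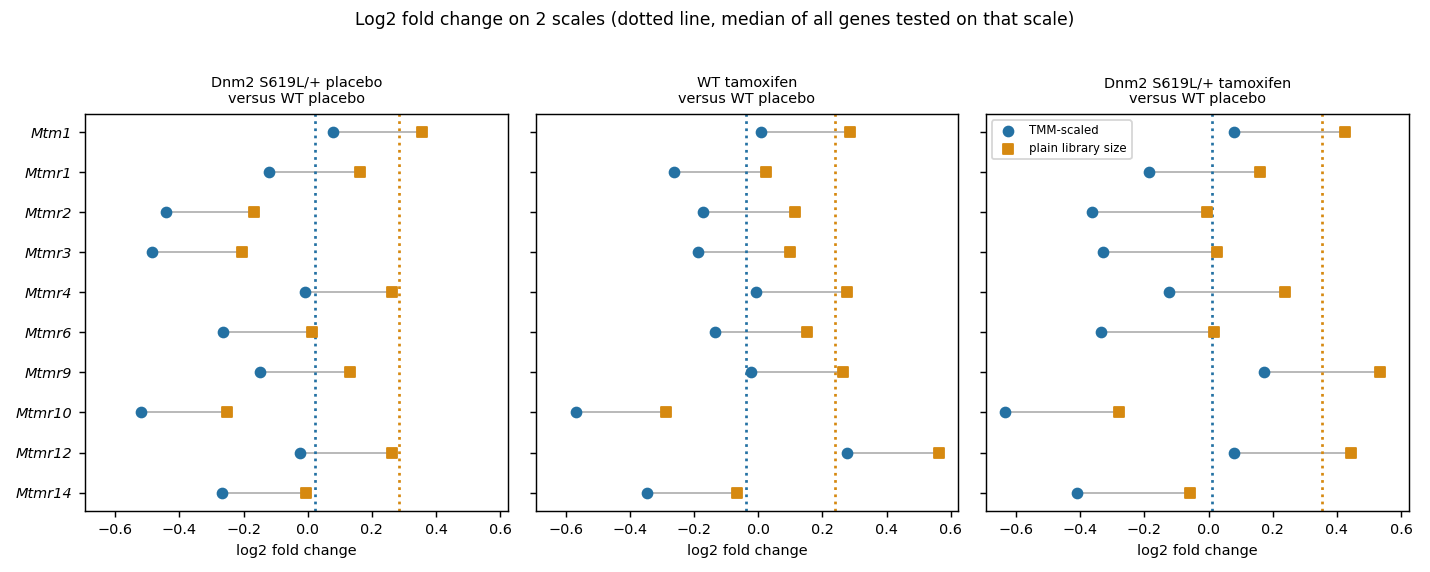
Log2 fold change of each member against WT placebo mice of the Dnm2 cohort, in 3 comparisons, with TMM scaling (circles) and plain library sizes (squares); the dotted lines are the medians of all genes tested on each scale. Every member moves right together with the median, which goes from 0.02 to 0.29, from -0.04 to 0.24 and from 0.01 to 0.35. Mtmr10 and Mtmr14 stay left of 0 on both scales in all 3 comparisons, and neither is called with plain library sizes.

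**Figure D3:**
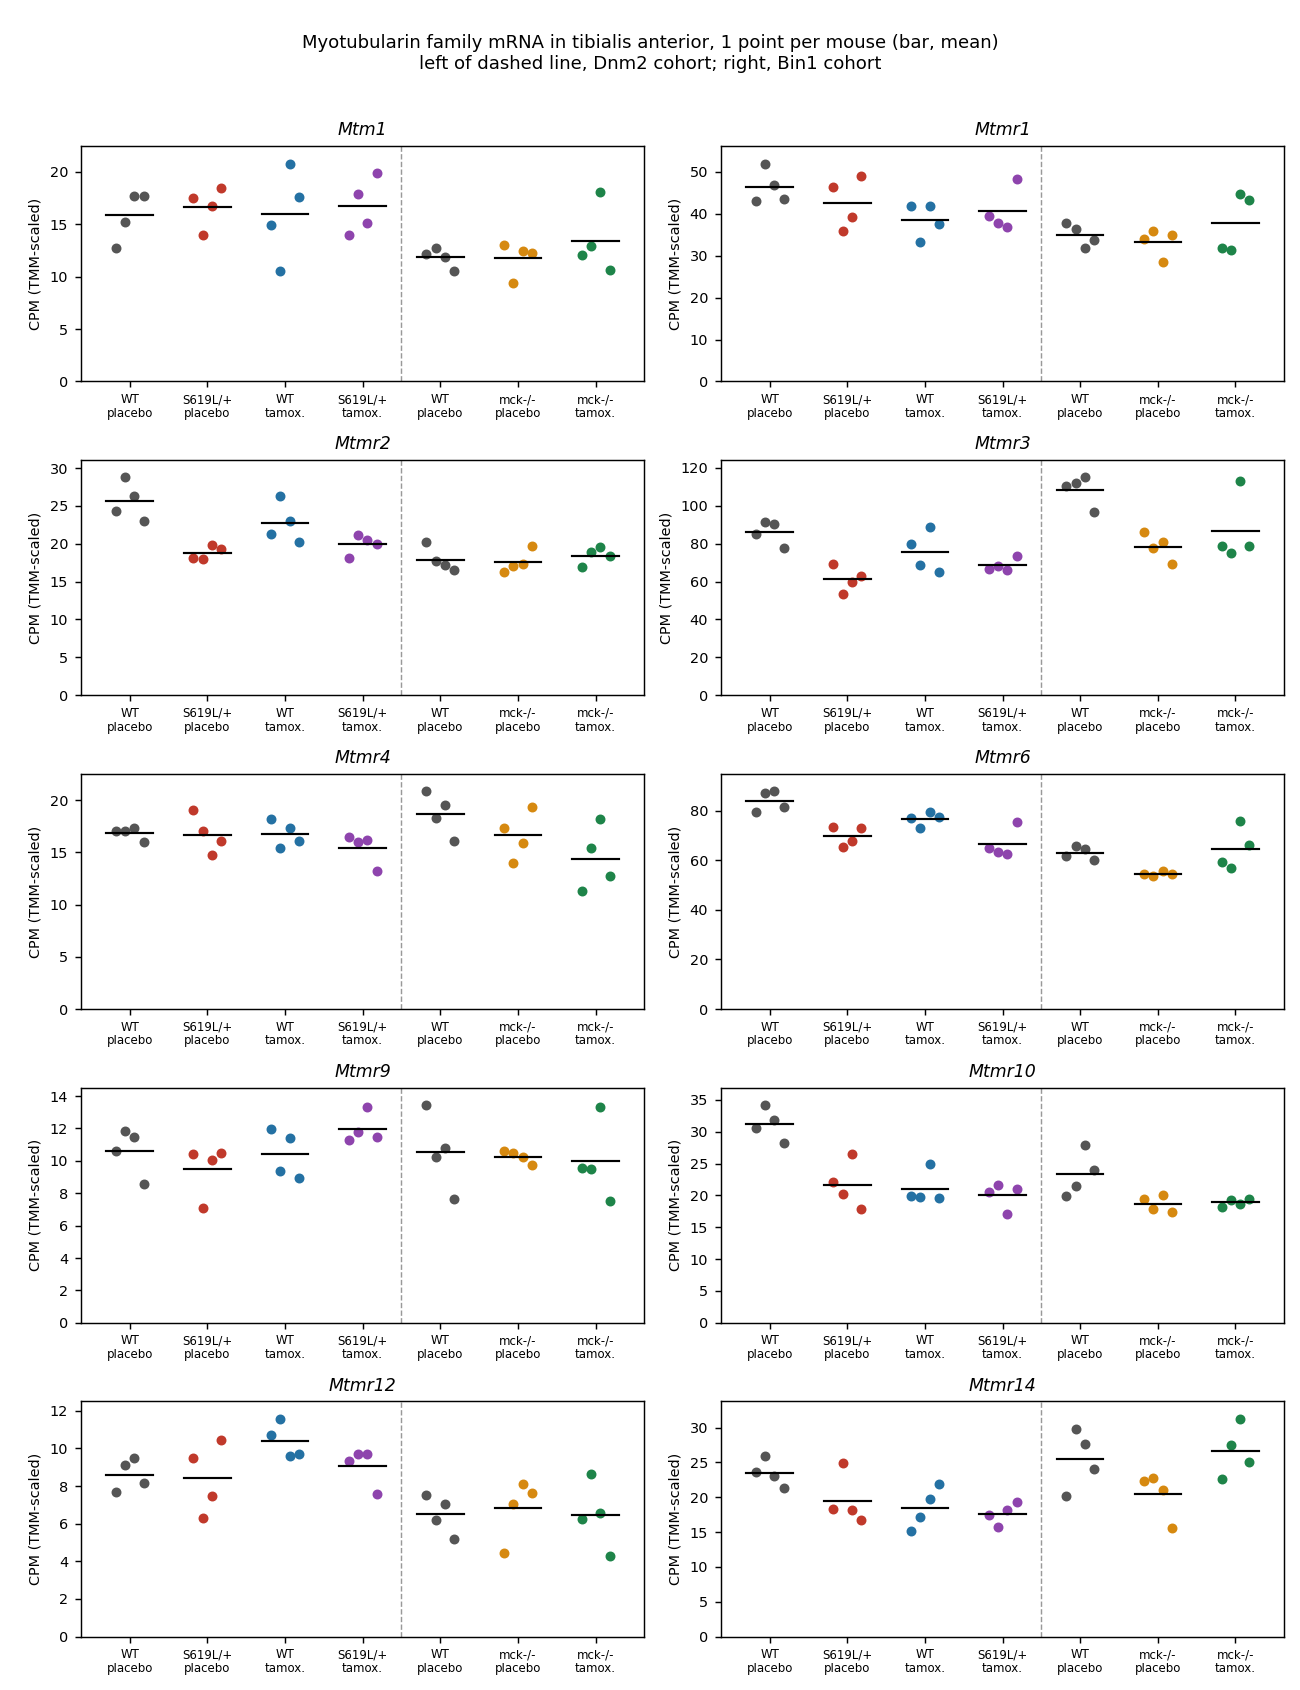
TMM-scaled CPM of each member in every mouse of the 7 groups, from 0; points are mice and bars group means, with the Dnm2 cohort left of the dashed line and the Bin1 cohort right of it. Mtmr10 is at 28.2 to 34.2 CPM in the WT placebo mice of the Dnm2 cohort and at 17.1 to 26.5 CPM in the other 12 mice, while Mtm1 overlaps between all groups of a cohort.

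Tamoxifen, a selective estrogen receptor modulator, was compared with placebo in WT mice of the Dnm2 cohort. Mtmr10 fell and no other member passed the test, where 27.7% of all genes tested were called in either direction and 11.9% were called lower. The median log2 fold change was -0.15 over the members and -0.04 over all genes. Mtmr10 was at 19.9, 19.7, 24.9 and 19.5 CPM in WT tamoxifen mice, each below the lowest WT placebo mouse at 28.2 CPM. Its log2 fold change was -0.57 ± 0.12 (SE), a ratio of 0.674 (edgeR adjusted p = 0.00366), and the call held without each of the 16 mice. With plain library sizes it was -0.29 (adjusted p = 0.0721), against a median of all genes of 0.24.

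The jumpy phosphatase gene Mtmr14 stood at 23.6, 25.9, 23.0 and 21.4 CPM in WT placebo mice and 15.1, 17.2, 19.7 and 21.9 CPM in WT tamoxifen mice. Only mouse 4 on tamoxifen reached the placebo range. The log2 fold change of -0.35 ± 0.13 (SE) missed the threshold (edgeR adjusted p = 0.0656) and passed it without WT tamoxifen mouse 4 or without S619L/+ placebo mouse 2 (lowest adjusted p = 0.0314). Mtmr12 was higher in every tamoxifen mouse (9.60 to 11.6 CPM) than in every placebo mouse (7.67 to 9.49 CPM), a log2 difference of 0.28 ± 0.15 (SE, edgeR adjusted p = 0.173), and was called higher only with plain library sizes (0.56, adjusted p = 0.0286). The other 7 members had log2 fold changes from -0.26 for Mtmr1 to 0.01 for Mtm1, with adjusted p of at least 0.111. Every WT tamoxifen mouse carried bone, cartilage and tendon markers that were near 0 or lower in WT placebo mice (5 of 6, 2 of 2 and 3 of 3 tested rose, with median log2 fold changes of 6.004, 4.92 and 3.23), and 4 of 5 immune and 3 of 4 fibroblast markers rose too. Muscle fiber markers lay lower together with Mtmr10 on the TMM scale: all 8 had log2 fold changes between -0.88 and -0.38, with a median of -0.42, 6 had an unadjusted p under 0.05 and 1, Myh2, was called. With plain library sizes none of the 8 was called. In this group no mouse is without the bone, cartilage and tendon markers, so tamoxifen and these markers cannot be told apart for Mtmr10.

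In Dnm2 S619L/+ mice, no member passed the test between tamoxifen and placebo, where 8.27% of all genes tested were called. No member passed in DESeq2 either, and 1 had an unadjusted p under 0.05. That one was Mtmr9, the inactive partner of Mtmr6, at 10.4, 7.10, 10.1 and 10.49 CPM on placebo and 11.3, 11.8, 13.3 and 11.4 CPM on tamoxifen. Its groups did not overlap, but the log2 fold change of 0.33 ± 0.14 (SE) missed the threshold (edgeR adjusted p = 0.171). The 4 members that fell with the mutation had log2 fold changes under tamoxifen of 0.08 ± 0.10 for Mtmr2, 0.16 ± 0.10 for Mtmr3, -0.07 ± 0.08 for Mtmr6 and -0.11 ± 0.12 for Mtmr10 (SE), with adjusted p of at least 0.380, and Mtm1 had 0.00 ± 0.18. The median was -0.03 both over the members and over all genes tested. Bone markers rose in this comparison too, 5 of 6 with a median of 6.09, mouse 4 on tamoxifen being the exception named above.

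Whether tamoxifen acted differently in the 2 genotypes was asked by an interaction term, which called no member and 0.259% of all genes tested. The unadjusted p was under 0.05 for 2 members, Mtmr10 and Mtmr3, and DESeq2 called none. The interaction of Mtmr10 was 0.46 ± 0.17 on the log2 scale (SE, unadjusted p = 0.0195, edgeR adjusted p = 0.286), and that of Mtmr3 0.34 ± 0.15 (adjusted p = 0.336). A difference in the response of Mtmr10, which fell with tamoxifen in WT mice and had its 4 S619L/+ values on tamoxifen within 17.1 to 21.7 CPM against 17.9 to 26.5 CPM on placebo, was thus not shown by this test.

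Against WT placebo mice, S619L/+ mice on tamoxifen had 5 members called lower, Mtmr2, Mtmr3, Mtmr6, Mtmr10 and Mtmr14, and none higher, where 28.9% of all genes were called in either direction and 13.1% were called lower. This comparison shares its WT placebo mice with the other two against that group, so the values are set side by side only as each comparison's own. The median log2 fold change was -0.26 over the members and 0.01 over all genes. Mtmr10 was at 20.5, 21.7, 17.1 and 20.99 CPM, all below the lowest WT placebo mouse, with a log2 fold change of -0.63 ± 0.12 (SE), a ratio of 0.644 (edgeR adjusted p = 0.00193). Mouse 4, with few reads of bone markers (18.3 CPM), was the one at 20.99 CPM, and the part of bone markers in these values was not tested.

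Mtmr6 was at 65.2, 63.3, 62.6 and 75.6 CPM, a log2 difference of -0.33 ± 0.08 (SE, edgeR adjusted p = 0.00607), and Mtmr2 at 18.1, 21.1, 20.5 and 19.9 CPM, with -0.36 ± 0.10 (adjusted p = 0.0121). Mtmr3 was at 66.5, 68.2, 66.1 and 73.5 CPM (-0.33 ± 0.10, edgeR adjusted p = 0.0284). Mtmr14 was at 17.5, 15.7, 18.2 and 19.3 CPM (-0.41 ± 0.13, edgeR adjusted p = 0.0323). None of these 4 groups overlapped the WT placebo mice. The share of all genes tested without overlap was not counted in this or any other comparison. The calls of Mtmr3 and Mtmr14 were lost without WT placebo mouse 2 or 3 or without S619L/+ tamoxifen mouse 1, 2 or 3, and that of Mtmr14 also without WT placebo mouse 1 (adjusted p up to 0.0962 and 0.106); that of Mtmr2 was lost without WT placebo mouse 2 (adjusted p = 0.0568). The number of members called fell from 5 to 2 without WT placebo mouse 2, and to 3 without WT placebo mouse 3 or S619L/+ tamoxifen mouse 1, 2 or 3. With plain library sizes none of the 5 was called, with log2 fold changes of -0.28 for Mtmr10, -0.06 for Mtmr14, 0.00 for Mtmr2, 0.02 for Mtmr6 and 0.02 for Mtmr3, so that Mtmr6 and Mtmr3 changed sign, and Mtmr9 was called higher instead (0.53, adjusted p = 0.0163), against a median of all genes of 0.35. Of 8 muscle fiber markers, 5 were called lower in this comparison (median -0.47), whereas with plain library sizes 1 was called lower and 1 higher. On the TMM scale 5 of 6 bone, 2 of 3 tendon, 4 of 5 immune and 3 of 4 fibroblast markers were called higher. Pax7, 1 of 3 satellite cell markers, was called lower (-1.67). That list had a median of -0.35 and a highest value of 0.50, and 1 of its genes was called higher with plain library sizes. The part of all these markers in the members' values was not tested.

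**Figure D4:**
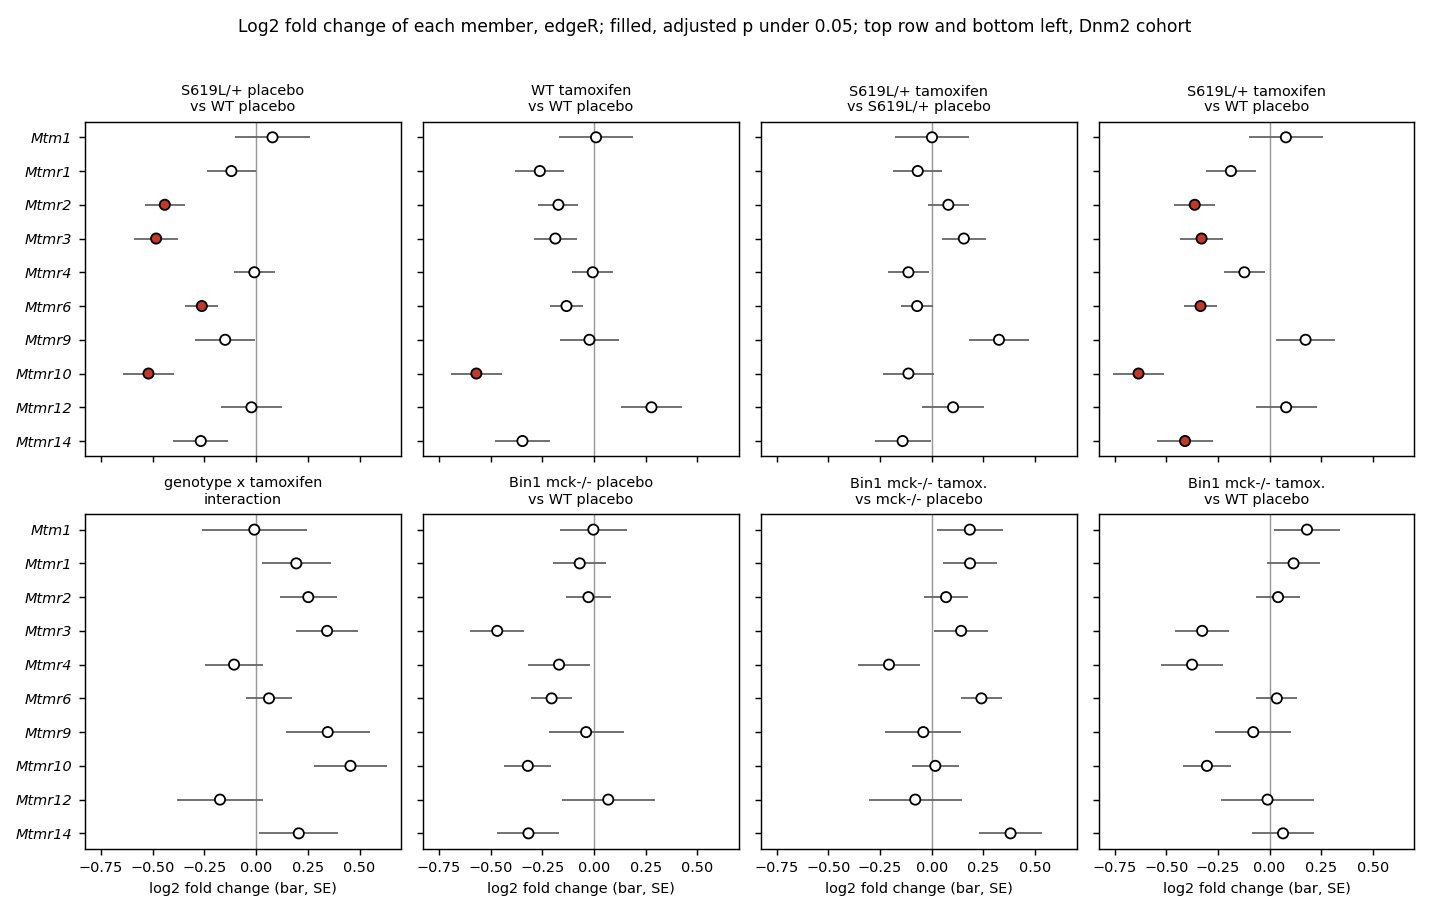
Log2 fold change of each member in the 8 comparisons on the TMM scale; bars are standard errors and filled points have an edgeR adjusted p under 0.05. The filled points are Mtmr2, Mtmr3, Mtmr6 and Mtmr10 in S619L/+ placebo, Mtmr10 in WT tamoxifen, and those 4 with Mtmr14 in S619L/+ tamoxifen, all against WT placebo, and they lie between -0.26 and -0.63.

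Mtm1 and Mtmr1 lie near each other on the X chromosome, at chrX:71210767-71315691 and chrX:71364760-71419196 (GRCm38). Sex is not given in the sources used here, and Xist, the RNA of the inactive X chromosome of females, was above 50 CPM in 2 of 4 mice in each of the WT placebo, WT tamoxifen and S619L/+ placebo groups, in 4 of 4 S619L/+ tamoxifen mice and in all 12 mice of the Bin1 cohort. Neither X-linked gene was called in any comparison. With Xist as a covariate the same 4 members were called in S619L/+ placebo against WT placebo, and the call of Mtmr10 in WT tamoxifen mice held, with Mtmr14 called lower beside it. In S619L/+ tamoxifen against WT placebo, where the Xist counts differ, 3 members were then called, Mtmr2, Mtmr6 and Mtmr10.

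With Bin1 deleted in muscle, no member passed the test on placebo, where 2.61% of all genes tested were called. Here 2 members had an unadjusted p under 0.05, and DESeq2 called 1, Mtmr3. The median log2 fold change was -0.12 over the members and 0.01 over all genes. Mtmr3 was at 110, 112, 115 and 96.5 CPM in WT mice 5 to 8 and at 85.9, 77.9, 80.8 and 69.1 CPM in Bin1 mck-/- placebo mice 1 to 4. The groups did not overlap, and the log2 fold change was -0.47 ± 0.13 (SE, edgeR adjusted p = 0.0641). That of the same gene in S619L/+ placebo mice, in the other cohort, was -0.48. With plain library sizes these became -0.345 and -0.205, and neither was called. The adjusted p of Mtmr3 ran from 0.0101 to 0.109 over 7 other ways of processing, 3 of which called it, and it was also called without Bin1 mck-/- tamoxifen mouse 2 or 3.

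Mtmr10 was at 19.97, 21.5, 27.9 and 24.0 CPM in these WT mice and 19.4, 17.9, 20.1 and 17.4 CPM in Bin1 mck-/- placebo mice. The groups overlap only between the lowest WT and the highest mutant mouse, and the log2 fold change was -0.32 ± 0.11 (SE, edgeR adjusted p = 0.128). Mtmr6 was at 60.0 to 65.8 CPM in WT mice and at 53.7 to 55.8 CPM in Bin1 mck-/- placebo mice, without overlap (-0.21 ± 0.10, adjusted p = 0.259). Mtmr2, which fell in S619L/+ mice, was at -0.03 ± 0.11 here (edgeR adjusted p = 0.919), and whether the 2 models differ was not tested, since the cohorts were prepared differently. Mtm1 was at 10.49 to 12.8 CPM in WT and 9.43 to 13.1 CPM in Bin1 mck-/- placebo mice, with a log2 fold change of 0.00 ± 0.16. Immune markers moved with this comparison, 4 of 5 rising with a median log2 fold change of 1.95, as did 2 of 3 adipocyte markers, while 1 of 8 muscle fiber markers (median -0.38) and 1 of 3 satellite cell markers fell, and their part in the values above was not tested.

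In Bin1 mck-/- mice no member passed the test between tamoxifen and placebo, where 3.13% of all genes tested were called, and DESeq2 called none. The unadjusted p was under 0.05 for Mtmr14 and Mtmr6. Mtmr14 was at 22.3, 22.8, 20.98 and 15.6 CPM on placebo and 22.6, 27.4, 31.3 and 25.0 CPM on tamoxifen. Placebo mouse 2 and tamoxifen mouse 1 overlap there, and the log2 fold change was 0.38 ± 0.15 (SE, edgeR adjusted p = 0.165). Mtmr6 was at 53.7 to 55.8 CPM on placebo and at 59.4, 56.9, 75.9 and 66.2 CPM on tamoxifen, without overlap (0.24 ± 0.10, adjusted p = 0.182). Tamoxifen mouse 3 had the highest level of its group for 8 of the 10 members, all but Mtmr10 and Mtmr12, among them Mtm1 (18.04 CPM), Mtmr1 (44.8 CPM) and Mtmr3 (113 CPM). The share of all genes that were highest in this mouse was not counted, and the values of a mouse share its library and scaling factor. The mouse with bone markers in this group, mouse 2, had the highest Mtmr12 level of the group (8.64 CPM) and the lowest levels of Mtmr1, Mtmr3 and Mtmr6, and was within the range of the other three for the remaining members. The median was 0.11 over the members and 0.00 over all genes. Of the marker lists, 1 of 8 muscle fiber markers rose (median 0.47, 6 at an unadjusted p under 0.05), and 2 of 3 Schwann cell markers (median -1.45) and 1 of 3 adipocyte markers (median -2.56) fell.

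Against WT mice, Bin1 mck-/- mice on tamoxifen also had no member called, where 0.849% of all genes tested were called, and DESeq2 called none. The unadjusted p was under 0.05 for Mtmr10, Mtmr3 and Mtmr4. Mtmr10 was at 18.2, 19.3, 18.7 and 19.5 CPM, each just below the lowest WT mouse at 19.97 CPM (-0.30 ± 0.11, edgeR adjusted p = 0.236). Mtmr4 was at 11.3 to 18.2 CPM against 16.1 to 20.9 CPM (-0.38 ± 0.15, adjusted p = 0.269). Mtmr3 was at 75.3 to 78.9 CPM in 3 of the tamoxifen mice and at 113 CPM in mouse 3 (-0.33 ± 0.13, edgeR adjusted p = 0.262), and was called lower without that mouse (adjusted p = 0.0358). The median was 0.01 over the members and 0.03 over all genes.

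Other family genes and the rest of the PI3P pathway were read from fixed lists. Of Sbf1, Sbf2, Mtmr7 and Mtmr11, all inactive relatives of the 10 except the phosphatase Mtmr7, only Mtmr11 was called in any of the 8 comparisons on the TMM scale. Mtmr11 was at 2.77 to 6.63 CPM in WT placebo mice of the Dnm2 cohort and at 9.37 to 15.4 CPM in WT tamoxifen mice (log2 fold change 1.30 ± 0.30, edgeR adjusted p = 0.00565). In S619L/+ tamoxifen mice it was at 11.8, 13.8, 13.7 and 5.56 CPM against WT placebo (1.19 ± 0.30, adjusted p = 0.00917). The fourth of these mice, the only one within the placebo range, is the one with 18.3 CPM of bone markers against 562 to 1395 CPM in the other three. It also had the lowest summed tendon and immune markers of its group, at 30.7 and 33.3 CPM. S619L/+ placebo mice, with at most 2.78 CPM of bone markers, had Mtmr11 at 7.84 to 9.26 CPM, above every WT placebo mouse (0.79 ± 0.30, edgeR adjusted p = 0.0733), and it was called higher there with plain library sizes (1.03, adjusted p = 0.0312). A relation of Mtmr11 to bone, tendon or immune markers was not tested.

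Among 10 tested genes for the making and conversion of PI3P, Vac14, the scaffold of the PIKfyve complex, rose in S619L/+ placebo mice (29.4 to 47.1 CPM on average, log2 fold change 0.68 ± 0.18, edgeR adjusted p = 0.0153). In WT mice under tamoxifen Vac14 fell (-0.51 ± 0.18, adjusted p = 0.0464) and the kinase Pikfyve rose (0.46 ± 0.13, edgeR adjusted p = 0.0187). Nothing else on that list was called, and no gene of it was called in the other 6 comparisons on the TMM scale. The class III kinase Pik3c3 and its subunits were among those not called. Of all genes tested, 21.9% were called in S619L/+ placebo mice and 27.7% in WT tamoxifen mice. The counts of this list are thus not above the share of genes at large.

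Among 14 other phosphoinositide phosphatases, 1 rose and 3 fell in S619L/+ placebo mice, beside 21.9% of all genes called, so the count is not far from that of genes at large. Inpp4b, a 4-phosphatase, rose (log2 fold change 0.86 ± 0.24, edgeR adjusted p = 0.0191), and the 5-phosphatases Inpp5b (-0.44 ± 0.09, adjusted p = 0.00409) and Inpp5j (-1.11 ± 0.29, adjusted p = 0.0145) fell, as did Inpp5e (-0.29 ± 0.10, adjusted p = 0.0411), which is outside the naming rule. Inpp4b was also higher in Bin1 mck-/- placebo mice than in their WT mice (10.4 to 20.9 CPM on average, log2 fold change 1.01 ± 0.20, edgeR adjusted p = 0.0246), where it was the only gene of the list called. Inpp5j and Inppl1 fell with tamoxifen in WT mice of the Dnm2 cohort (-1.13 ± 0.29 and -0.29 ± 0.10, edgeR adjusted p = 0.00991 and 0.0353). They also fell with tamoxifen in Bin1 mck-/- mice (-1.001 ± 0.23 and -0.49 ± 0.12, edgeR adjusted p = 0.0282 and 0.0389). In S619L/+ mice on tamoxifen the list had no call against placebo, and against WT placebo Inpp4b was higher (0.75 ± 0.24) and Inpp5j lower (-1.14 ± 0.29), with edgeR adjusted p of 0.0279 and 0.00928. Against WT, Bin1 mck-/- mice on tamoxifen had Inpp5j called lower (-1.13 ± 0.23, edgeR adjusted p = 0.0297).

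Of 15 genes for proteins that bind PI3P, the endosomal sorting protein gene Hgs rose and Rbsn fell in S619L/+ placebo mice (log2 fold changes 0.75 ± 0.16 and -0.34 ± 0.11, edgeR adjusted p = 0.00392 and 0.0364). In WT mice under tamoxifen 3 of the 15 rose and 2 fell, beside 27.7% of all genes called, a share near theirs; the calls were led by the sorting nexins Snx1 (0.68 ± 0.12, edgeR adjusted p = 0.00106) and Snx2 (0.38 ± 0.09, adjusted p = 0.00547) and by the autophagy gene Wipi1 (-0.31 ± 0.08, adjusted p = 0.00878). Under tamoxifen in S619L/+ mice Snx2 rose (0.31 ± 0.09, edgeR adjusted p = 0.0420). S619L/+ tamoxifen against WT placebo had Hgs (0.63 ± 0.16) and Snx1 (0.43 ± 0.12) higher and Rufy1 lower (-0.34 ± 0.12), the last with its sign changed to 0.02 with plain library sizes. Of all genes tested, 21.9% were called in S619L/+ placebo mice and 8.27% for tamoxifen in S619L/+ mice. The share was 28.9% in S619L/+ tamoxifen against WT placebo, and the counts of this list are not above these shares. In the Bin1 cohort none of the 15 was called, with 4, 2 and 1 of them at an unadjusted p under 0.05 in its 3 comparisons. With plain library sizes, the genes of the 3 PI3P and phosphatase lists called lower against WT placebo of the Dnm2 cohort were no longer called, apart from Inpp5j, and 5, 4 and 10 of the 15 were called higher in S619L/+ placebo, WT tamoxifen and S619L/+ tamoxifen. On that scale 5275, 4789 and 6562 of all 15439 genes tested were called in these comparisons. Only 468, 383 and 444 of those were lower, so calls of higher levels were common among genes at large.

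Among 6 tested centronuclear myopathy genes and desmin, Bin1 rose in S619L/+ placebo mice (499.9 to 874 CPM on average, log2 fold change 0.81 ± 0.15, edgeR adjusted p = 0.00176) with the intermediate filament gene Des (0.96 ± 0.20, adjusted p = 0.00409). Under tamoxifen in S619L/+ mice Bin1 fell (-0.51 ± 0.15, edgeR adjusted p = 0.0479; not called with plain library sizes). Its remaining mRNA in Bin1 mck-/- mice, 56.2 CPM on average on placebo, fell with tamoxifen to 40.9 CPM (-0.46 ± 0.12, edgeR adjusted p = 0.0466; called with plain library sizes too), and no other gene of the list was called in the Bin1 cohort on the TMM scale. In S619L/+ tamoxifen mice against WT placebo the calcium release channel gene Ryr1 (-0.56 ± 0.20) and Ttn, which encodes titin (-0.46 ± 0.16), were lower, with edgeR adjusted p of 0.0454 and 0.0369; with plain library sizes neither was called (-0.22 and -0.13). Dnm2 mRNA was at 61.0 to 64.4 CPM in WT placebo and 62.0 to 72.4 CPM in S619L/+ placebo mice; it was not called on the TMM scale (0.10 ± 0.07, edgeR adjusted p = 0.344) and was called higher with plain library sizes (0.37, adjusted p = 0.00592).

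Over the 16 mice of the Dnm2 cohort and the 12 of the Bin1 cohort, Mtmr3 and Mtmr6 had the most alike levels among the members, with Pearson's r of 0.80 and 0.71 between log2 CPM. Mtmr10 was next most like Mtmr3, with 0.68 and 0.62, and Mtmr1 was like Mtmr6, with 0.63 and 0.67. Mtm1 was not much like any other member, Mtmr1 coming first with 0.51 and 0.27. Of 14572 genes tested in both cohorts, those most like Mtm1 by the lower of the 2 values were Ncoa2 (0.74 and 0.68), Birc6 (0.76 and 0.67), Zfp518a (0.65 and 0.67), Fam199x (0.65 and 0.77) and Gm28941 (0.81 and 0.64). These are descriptions over mice that differ in group, and the values of a mouse share its library, depth and scaling factor.

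The bases before the start sites are shown for 4 members, 3 that were called lower in at least 1 comparison and Mtm1, which was not (RefSeq start sites, build GRCm38.p6). They are the plus strands of chr7:64287420-64287652 (Mtmr10), chr14:60264955-60265204 (Mtmr6), chr6:113237593-113237842 (Mtmr14) and chrX:71214756-71215005 (Mtm1). The RefSeq starts of Mtm1 and Mtmr6 lie 33 and 23 bases from those of the principal GENCODE transcripts, and those of the other two coincide with them. The run of Mtmr10 leaves out 17 bases at its far end that lie in an annotated exon. RefSeq entries were matched for 7 of the 10 members. Capitals mark matches on either strand to CCAAT, to GGGCGG and to CACGTG, while TATAAA had no match in them. A match is a description of letters, not a bound site.
Mtmr10: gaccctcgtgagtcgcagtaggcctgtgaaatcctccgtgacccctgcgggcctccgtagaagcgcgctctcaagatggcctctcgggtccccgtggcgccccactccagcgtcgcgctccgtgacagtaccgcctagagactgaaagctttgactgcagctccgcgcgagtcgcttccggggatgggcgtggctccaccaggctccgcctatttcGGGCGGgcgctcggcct
Mtmr6: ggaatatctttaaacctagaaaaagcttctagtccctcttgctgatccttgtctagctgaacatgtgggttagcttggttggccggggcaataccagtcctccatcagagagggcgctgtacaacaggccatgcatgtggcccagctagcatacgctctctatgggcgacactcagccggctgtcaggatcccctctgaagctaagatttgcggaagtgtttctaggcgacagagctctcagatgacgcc
Mtmr14: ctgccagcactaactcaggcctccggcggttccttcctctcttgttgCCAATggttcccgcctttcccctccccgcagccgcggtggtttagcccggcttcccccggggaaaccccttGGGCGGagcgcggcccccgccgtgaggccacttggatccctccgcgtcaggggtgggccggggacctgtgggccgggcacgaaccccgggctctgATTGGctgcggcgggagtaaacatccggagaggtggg
Mtm1: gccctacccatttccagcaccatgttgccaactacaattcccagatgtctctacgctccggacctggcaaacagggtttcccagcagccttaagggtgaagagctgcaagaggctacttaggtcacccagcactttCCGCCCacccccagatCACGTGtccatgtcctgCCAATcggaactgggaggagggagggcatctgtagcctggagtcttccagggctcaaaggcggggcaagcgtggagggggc

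Over 32817 such windows of 250 bases, 33.8% held CCAAT, 32.7% GGGCGG, 12.4% TATAAA and 6.02% CACGTG. The Mtmr6 window held none of the 4 and had 52.8% G and C, near the median of 52.4% over all windows, whereas those of Mtmr10 and Mtmr14 had 68.4% and 70.0%. The 3 shown members that were called lower do not all hold any motif of this set in these windows.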

How the data were processed

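RNA from 28 tibialis anterior muscles was made into stranded poly(A) libraries. The authors deposited raw read counts per Ensembl gene, 1 table per cohort; the submitters' processing notes name, with no role or order, bcl2fastq 2.20.0.422, cutadapt 1.10, Bowtie 1.2.2, STAR 2.5.3, HTSeq 0.6.1p1 and mm39. Lines of the Bin1 table that name no gene held 22.0 to 30.8% of its counts and were left out. Symbols came from GENCODE M21 (GRCm38), whose coordinates are given; each member matched 1 identifier. Each cohort was fitted alone with edgeR 4.0.16 in R 4.3.3 (filterByExpr, TMM, robust glmQLFit, glmQLFTest, prior count 2), with Benjamini-Hochberg adjustment over all genes tested and a threshold of 0.05; the standard error is the log2 fold change divided by the root of F. The code was tested on simulated data. DESeq2 1.42.0, RLE factors, other filters, plain and non-mitochondrial library sizes, only the groups compared, a replicate block, an Xist covariate and leaving out each mouse were alternatives, plain sizes and Xist being added after the data were seen. Coding sequences were aligned as protein with MAFFT 7.526. Members and lists were chosen with earlier results of these data known. The naming rule took all 10 members and, of each other list, the 3 called genes with the smallest p in a comparison. Within groups, the lowest chi-square per gene between mice was 15.6, so no pair of libraries counted as 1. Labels give 1 library per sample and do not state litters or days. Precision is set by depth and by 4 mice per group.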

Additional observations from a re-analysis of the deposited data

Results flagged for a closer look

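Among 70 sets of 4 mice searched, 1 mouse stood apart from the other three in 4, where chance gives about 1 in 20. In Bin1 mck-/- mice on tamoxifen, mouse 3 had 113.3 CPM of Mtmr3 against 75.3 to 78.9 CPM. In S619L/+ placebo mice, mouse 2 had 7.103 CPM of Mtmr9 against 10.1 to 10.49 CPM. In S619L/+ tamoxifen mice, mouse 4, the one with few reads of bone markers, had 13.21 CPM of Mtmr4 against 15.98 to 16.5 CPM. In WT tamoxifen mice, mouse 3 had 24.95 CPM of Mtmr10 against 19.5 to 19.9 CPM.

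Of 40 pairs of effects searched, 3 had every tamoxifen mouse of one comparison below the mean of its placebo group and every tamoxifen mouse of the other above the mean of its own, although single mice overlapped between tamoxifen and placebo for Mtmr14 in all 3 comparisons. All 3 pairs use the tamoxifen effect in Bin1 mck-/- mice, and all but that of Mtmr6 are of Mtmr14, so they are not separate results. How often other genes or chance give such a pair was not counted. These differences were not tested, since the cohorts were prepared differently. For Mtmr14, tamoxifen gave a log2 fold change of -0.35 in WT mice of the Dnm2 cohort and of 0.38 in Bin1 mck-/- mice, a difference of -0.727. In S619L/+ mice it was -0.14, which differs from the Bin1 mck-/- value by -0.522. For Mtmr6 the values were -0.13 in WT mice and 0.24 in Bin1 mck-/- mice, a difference of -0.373; with plain library sizes they were 0.15 and 0.07, no longer of opposite sign. Those of Mtmr14 were -0.07 in WT, -0.06 in S619L/+ and 0.23 in Bin1 mck-/- mice with plain sizes.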

How the results depend on the processing

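Over 530 values of single members under the alternatives that kept all mice, plain library sizes and the Xist covariate apart, 522 kept their side of the threshold, 4 lost a call and 4 gained one. DESeq2 called 2 members in WT tamoxifen mice (1 in the main analysis) and 1 in Bin1 mck-/- placebo mice (0); without a filter 3 were called in S619L/+ tamoxifen against WT placebo (5) and 1 in Bin1 mck-/- placebo mice; with only the groups compared 1 was called in Bin1 mck-/- placebo mice. With plain library sizes 0 of 4 were called in S619L/+ placebo and 1 in place of 5 in S619L/+ tamoxifen against WT placebo, and the log2 fold changes of Mtmr6 (0.014 and 0.016) and, in the latter, Mtmr3 (0.025) changed sign. With Xist as a covariate 2 members were called in WT tamoxifen mice and 3 in S619L/+ tamoxifen against WT placebo. Beyond what these alternatives change by construction, the cause was not tested.

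Leaving out each mouse gave 3 to 4 members called in S619L/+ placebo against WT placebo, 1 to 2 in WT tamoxifen mice, 2 to 5 in S619L/+ tamoxifen against WT placebo, 0 to 1 in Bin1 mck-/- placebo and in Bin1 mck-/- tamoxifen mice against WT, and 0 in the other comparisons. Same-numbered mice did not deviate together (correlations from -0.395 to 0.424), so numbers were taken as names; the replicate block moved the calls in S619L/+ tamoxifen against WT placebo from 5 to 4 (Mtmr14 lost) and changed no other member's call, and genes called in all went from 3382 to 2842, 4273 to 3835, 1277 to 843, 4461 to 3976 and 40 to 10. For tamoxifen in Bin1 mck-/- mice the block was fitted with only the groups compared, where it moved the genes called from 122 to 152. No other member changed sign while called, and 99 uncalled values changed sign.

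Genes called among all tested also moved. DESeq2 called 327 for the interaction (40), 1191 in Bin1 mck-/- placebo mice (388), 1216 for tamoxifen in Bin1 mck-/- mice (464) and 544 in Bin1 mck-/- tamoxifen mice against WT (126). With only the groups compared, 30 were called for tamoxifen in S619L/+ mice (1277), 1458 in Bin1 mck-/- placebo mice and 122 for tamoxifen in Bin1 mck-/- mice. Without a filter 814 were called for tamoxifen in S619L/+ mice and 210 in Bin1 mck-/- tamoxifen mice against WT, and the interaction had 20 with RLE factors and 16 with the study's filter. Plain library sizes gave 5275 in S619L/+ placebo against WT placebo (3382), and the Xist covariate 478 for tamoxifen in S619L/+ mice, 2936 in S619L/+ tamoxifen against WT placebo (4461) and 126 for the interaction. Leaving out a mouse gave 368 to 2562 for tamoxifen in S619L/+ mice, 1 to 293 for the interaction, 18 to 759 in Bin1 mck-/- placebo mice, 160 to 1253 for tamoxifen in Bin1 mck-/- mice and 42 to 266 in Bin1 mck-/- tamoxifen mice against WT. At this depth, Mtmr12, with 117 to 757 reads per mouse, had the fewest reads of the members.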
